A study of Mus musculus with 8 samples.

Results

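The Hox genes encode homeodomain transcription factors that lie in 4 clusters, HoxA to HoxD, and carry a number, the paralogue group, from 1 at one end of a cluster to 13 at the other. The 39 genes described here are all those of the count table whose mouse symbol is Hox, a cluster letter and a number, out of 55573 genes counted. They were measured by RNA sequencing of C low-threshold mechanoreceptors (C-LTMRs), unmyelinated neurons that answer light touch on hairy skin and have their cell bodies in dorsal root ganglia. C-LTMRs of adult mice had been collected by flow cytometry as GFP-positive cells from male Bhlha9 knockouts (KO), male wild types (WT), female Bhlha9 KO mice and female WT mice, with 2 libraries in each of the 4 groups, which the submitters call biological replicates. Bhlha9 encodes a basic helix-loop-helix (bHLH) transcription factor, and all 4 groups share the GFP label by which the cells were sorted. The labels name neither the strain, nor the gene that drives GFP, nor the spinal levels of the ganglia, nor how many animals went into a library.

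In vertebrate embryos Hox genes are switched on along the body axis roughly in the order of their paralogue numbers. Low numbers begin in the hindbrain and neck, middle numbers at the levels of the forelimb and trunk, and the highest numbers in the lumbar, sacral and tail regions. The combination a cell keeps is often read as its axial address, and spinal motor neurons and sensory ganglia retain such codes after birth. Polycomb and trithorax proteins hold the off and on states, and Pbx, Meis and Pknox (Prep) homeodomain proteins bind DNA together with Hox proteins.

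The libraries held between 50919885 and 71956309 counts on genes. Levels are given as CPM, counts scaled to 1000000 per library with adjusted library sizes, within a gene, and as RPKM, CPM per kilobase of exon, wherever the levels of Hox genes are ranked. A floor of 3 counts, the limit that a count of 0 allows, lay between 0.0421 and 0.0587 CPM and covers counting error only, since copies made by PCR were counted as reads of their own. Bhlha9 itself stood at 0.156 and 0.277 CPM in male KO libraries, against 151 and 161 CPM in male WT libraries. In females it stood at 0.47 and 0.253 CPM in KO libraries, against 140 and 127 CPM in WT libraries. All 10 C-LTMR markers looked up were expressed in every library, with tyrosine hydroxylase (Th) between 2973 and 5358 CPM. The male_KO1 library stood apart from the other 7 on the first principal component, and female_KO1 stood apart on the second. In male_KO1 the 6 myelinated afferent markers summed to 5783 CPM, against 942 to 1985 CPM elsewhere. Over the 8 libraries glial markers summed to 906 to 3930 CPM, vascular and fibroblast markers to 3.24 to 63.5 CPM, immune markers to 11.8 to 25.4 CPM, red blood cell markers to 0.106 to 16.4 CPM and nonpeptidergic nociceptor markers to 15.8 to 296 CPM. The highest glial sum and the highest vascular and fibroblast sum were both those of male_KO1.

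Hox expression in C-LTMRs was concentrated in the middle of the clusters. Of the 39 genes, 18 had at least 1 CPM in every library, 11 reached 1 CPM in some libraries only, Hoxb8 stayed under 1 CPM in all of them, and 9 had 0 counts in all 8 libraries. The share with at least 1 CPM in every library was 23.1% over all genes counted. The 18 were Hoxa3, Hoxa4, Hoxa5, Hoxa7, Hoxa9 and Hoxa10 in HoxA, Hoxb2, Hoxb3, Hoxb5, Hoxb6 and Hoxb7 in HoxB, Hoxc6 and Hoxc9 in HoxC, and Hoxd1, Hoxd3, Hoxd4, Hoxd8 and Hoxd9 in HoxD. The 9 genes at 0 were Hoxb1 at the anterior end and Hoxa11, Hoxa13, Hoxb13, Hoxc11, Hoxc12, Hoxc13, Hoxd12 and Hoxd13 at the posterior end. All 6 members of groups 12 and 13 were among them, genes known for the formation of digits, tail and urogenital tract. Per kilobase, groups 4 to 8 made up 81.6% of the summed Hox RPKM on average, with a range of 79.1% to 85.8% over the libraries. Groups 9 to 13 made up 10.5% and groups 1 to 3 made up 7.96%.

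**Figure D1:**
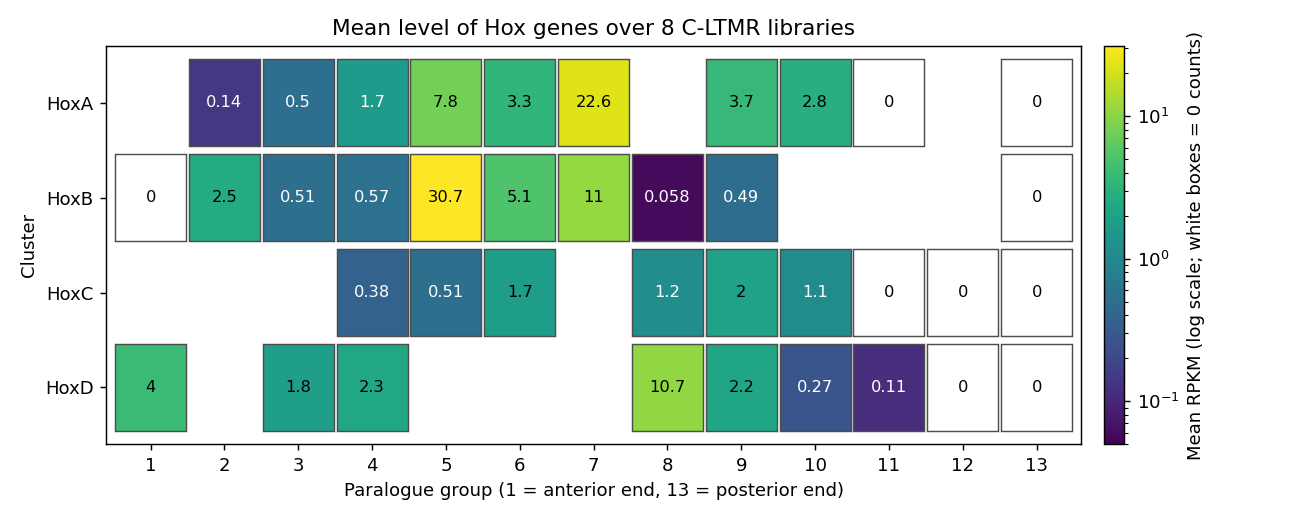
Mean RPKM over the 8 libraries of Hox genes, with clusters down the page and paralogue groups across it, coloured on a log scale. White boxes are genes with 0 counts in all 8 libraries, and gaps are positions where mouse has no gene or the gene is not reported here. The highest boxes are Hoxb5 at 30.7 RPKM and Hoxa7 at 22.6 RPKM, and no box of groups 12 and 13 is above 0.

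HoxB and HoxA carried most of the Hox transcripts. HoxB, on chromosome 11 from 96194316 to 96368256 (GRCm38), held 41.7% of the summed RPKM. HoxA, on chromosome 6, held 35.1%. HoxD, on chromosome 2 from 74668310 to 74765142, held 17.5%, and HoxC, on chromosome 15 from 102921103 to 103036852, held 5.67%. Bhlha9 also lies on chromosome 11, 19.5 Mb from HoxB. HoxC was the cluster with the lowest share in every library but had its highest share, 11%, in male_KO1, against 3.39% to 7.58% in the other 7 libraries.

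Hoxb5 was the most abundant member. In mouse it is known for its part in the enteric nervous system and in the placing of the shoulder. It stood at 44.5 and 83.7 CPM in male KO libraries, against 91.2 and 73.4 CPM in male WT libraries. In females it stood at 85.0 and 102 CPM in KO libraries, against 115 and 88.9 CPM in WT libraries. The lowest value was that of male_KO1, and the groups overlapped in both sexes. Hoxa7, a gene of the thoracic region, was next. It stood at 55.7 and 50.6 CPM in male KO libraries, against 75.5 and 57.0 CPM in male WT libraries. In females the values were 51.7 and 71.1 CPM in female KO libraries, against 83.2 and 75.4 CPM in female WT libraries. In each sex both KO libraries of Hoxa7 lay below both WT libraries, but across the sexes the highest KO library lay above the lowest WT library. Over both sexes Hoxa7 had a log2 fold change of -0.34 (SE 0.15, edgeR adjusted p = 1.0). Of the Hoxa7 exon length, 20.4% is shared with Hoxaas3, an antisense RNA, and the counting took no account of strand.

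The order below these 2 genes was loose. Hoxb5 and Hoxa7 were the leading pair in 8 of 8 libraries, with Hoxb5 first in 7 of them. Hoxb7, Hoxd8 and Hoxa5 followed with means of 11, 10.7 and 7.81 RPKM. Hoxb7 had the higher mean of the first 2 but was above Hoxd8 in 2 of 8 libraries only. Among the 20 most abundant members there were 19 pairs of neighbours in the order of mean RPKM, and 2 of these pairs kept their order in all 8 libraries: Hoxa7 over Hoxb7, and Hoxd8 over Hoxa5. Neighbours further down, from Hoxb6 at 5.14 RPKM through Hoxd1, Hoxa9, Hoxa6 and Hoxa10 to Hoxb2 at 2.53 RPKM, changed places between libraries.

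**Figure D2:**
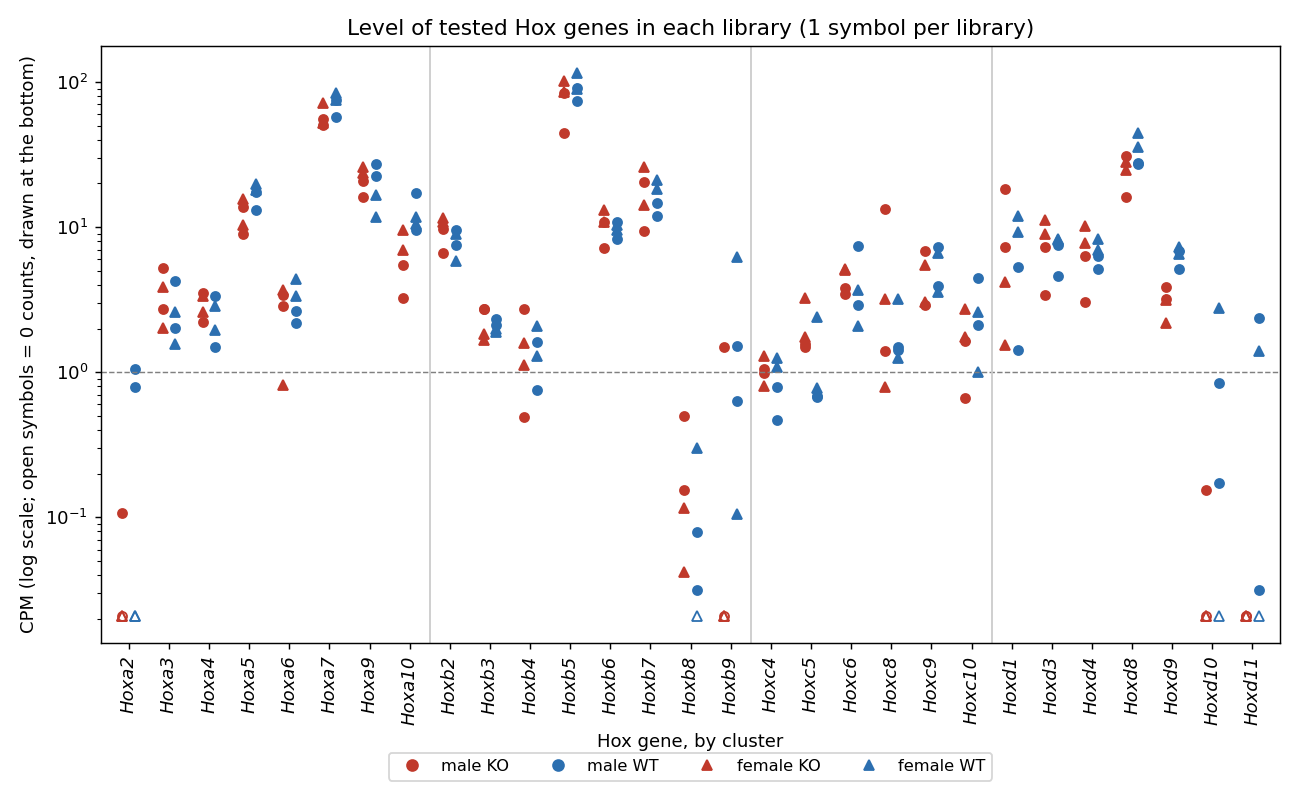
CPM on a log scale of 29 of the 30 Hox genes that entered the test, grouped by cluster, with 1 symbol per library (circles male, triangles female) and KO left of WT within each gene. The dashed line is 1 CPM and open symbols at the bottom are libraries with 0 counts. Hoxb5 and Hoxa7 lie between 44.5 and 115 CPM, while Hoxa2, Hoxb9, Hoxd10 and Hoxd11 spread from 0 or near 0 to above 1 CPM.

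Anterior members, groups 1 to 3, were present at low to moderate levels. Hoxb2, which in the embryo acts in the hindbrain, had 6.6 and 9.65 CPM in male KO libraries, against 7.55 and 9.56 CPM in male WT libraries, and 11.6 and 10.9 CPM in female KO libraries, against 5.87 and 8.93 CPM in female WT libraries. In females both KO libraries were above both WT libraries, and in males the groups overlapped. Hoxa3, needed in mouse for thymus and parathyroid, ranged from 2.02 to 5.2 CPM in KO libraries and from 1.57 to 4.27 CPM in WT libraries. Hoxd3, which shapes the first neck vertebrae, had 7.33 and 3.38 CPM in male KO libraries, against 4.63 and 7.51 CPM in male WT libraries, and 11.1 and 8.92 CPM in female KO libraries, against 8.11 and 8.31 CPM in female WT libraries. Reads of Hoxd3 cannot be fully told apart from those of overlapping genes, since 62.8% of its exon length is shared, mostly with Gm28230, a gene model that overlaps both neighbours, and partly with Hoxd4 and the antisense Hoxd3os1. The same holds for Hoxd4, with 52.3% shared, and for Hoxb3, with 52.9% shared with the antisense Hoxb3os. Hoxa2, a gene of the second pharyngeal arch, was patchy. Hoxa2 had 0 and 7 counts in male KO libraries, against 67 and 50 in male WT libraries, and 0 in all 4 female libraries.

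In the middle of the clusters, groups 4 to 8, Hoxa5 and Hoxb6 were steady and Hoxc8 was not. Hoxa5, a gene of the neck and upper trunk that is needed for the mouse airway, had 8.92 and 13.8 CPM in male KO libraries, against 17.4 and 13.1 CPM in male WT libraries, and 10.3 and 15.7 CPM in female KO libraries, against 19.8 and 18.0 CPM in female WT libraries. In females both KO libraries were below both WT libraries. Hoxb6, a trunk gene, ranged from 7.17 to 13.1 CPM in KO libraries and from 8.24 to 10.8 CPM in WT libraries, the lowest coefficient of variation (CV) of all members at 17.9%. Hoxb7, another trunk gene, had 20.3 and 9.34 CPM in male KO libraries, against 14.6 and 11.9 CPM in male WT libraries, and 14.1 and 25.8 CPM in female KO libraries, against 21.1 and 18.3 CPM in female WT libraries, so the KO libraries of each sex lay on both sides of the WT ones. Hoxd8, which acts in the trunk with its paralogues Hoxb8 and Hoxc8, had 16.1 and 31.1 CPM in male KO libraries, against 27.2 and 27.6 CPM in male WT libraries, and 28.1 and 24.9 CPM in female KO libraries, against 44.8 and 35.4 CPM in female WT libraries. Hoxc6, a gene of the forelimb level, ranged from 3.48 to 5.11 CPM in KO libraries and from 2.09 to 7.39 CPM in WT libraries. Hoxa4 and Hoxd4 belong to a group that shapes neck vertebrae. Hoxa4 ranged from 2.22 to 3.51 CPM in KO libraries and from 1.49 to 3.35 CPM in WT libraries, and Hoxd4 from 3.05 to 10.2 CPM in KO libraries and from 5.15 to 8.23 CPM in WT libraries. Of the members of these groups that missed 1 CPM in some library, Hoxa6 ranged from 0.822 to 4.37 CPM over the 8 libraries, Hoxb4 from 0.493 to 2.72 CPM, Hoxc4 from 0.471 to 1.29 CPM and Hoxc5 from 0.676 to 3.27 CPM.

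Hoxc8, which in mouse patterns the brachial spinal cord, was high in 1 library. It had 13.4 and 1.4 CPM in male KO libraries, against 1.43 and 1.49 CPM in male WT libraries. In females it had 3.21 and 0.786 CPM in KO libraries, against 3.21 and 1.25 CPM in WT libraries. In males the log2 fold change of Hoxc8 was 2.34 with an SE of 1.22 (edgeR adjusted p = 1.0), and without male_KO1 it was -0.06. The high library is the one with the most myelinated afferent signal: Nefh, the heavy neurofilament of myelinated neurons, stood at 1549 CPM in male_KO1 and at 61.3 to 296 CPM in the other 7, and the calcium buffer Pvalb at 83.0 CPM against 0.225 to 17.3 CPM. Nefm and Spp1 of the same list were also highest in male_KO1, but Ntrk2 and Ntrk3 were not. Ntrk2 stood at 56.3 CPM there, within 25.9 to 58.5 CPM over the 8 libraries. Ntrk3 stood at 254 CPM, within 133 to 265 CPM. The male_KO1 library also had the highest sums of glial and of vascular and fibroblast markers. None of the 6 myelinated afferent markers was at 0 counts in any library. The part of all these markers in the Hoxc8 value was not tested. Hoxb8, whose regulatory DNA drives widely used Cre lines for spinal cord and sensory neurons below the neck, was close to the floor, with 29 and 10 counts in male KO libraries, against 5 and 2 in male WT libraries, and 6 and 3 in female KO libraries, against 0 and 19 in female WT libraries.

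Among posterior members, groups 9 to 13, no count was found beyond group 11. Hoxa9, best known from blood cell precursors, was the highest of them at 3.68 RPKM, and Hoxa10, Hoxd9 and Hoxc9 followed at 2.84, 2.24 and 2.04 RPKM. Hoxc9, which sets thoracic identity in mouse motor neurons, had 6.81 and 2.9 CPM in male KO libraries, against 7.25 and 3.91 CPM in male WT libraries, and 5.46 and 3.05 CPM in female KO libraries, against 6.67 and 3.58 CPM in female WT libraries. KO and WT libraries overlapped in both sexes. Hoxc10, a gene of the lumbar level, had 1.63 and 0.663 CPM in male KO libraries, against 4.44 and 2.11 CPM in male WT libraries, and 2.72 and 1.76 CPM in female KO libraries, against 2.59 and 1.01 CPM in female WT libraries.

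Along HoxD the level dropped by steps toward the posterior end. Hoxd8 averaged 10.7 RPKM, Hoxd9 2.24 RPKM, Hoxd10 0.271 RPKM and Hoxd11 0.112 RPKM, and Hoxd12 and Hoxd13 had 0 counts. Hoxd10, which in mouse takes part in hindlimb motor innervation, had 0 and 10 counts in male KO libraries, against 53 and 11 in male WT libraries, and 0 in both female KO libraries, against 157 and 0 in female WT libraries. Hoxd11, a limb and kidney gene, had 0 counts in all 4 KO libraries, against 148 and 2 in male WT libraries and 79 and 0 in female WT libraries. The stretches of 250 bases before the RefSeq start of the 3 genes at this step, and of Hoxd1 at the anterior end of the cluster, are shown with E-boxes in capitals, since bHLH factors as a class bind the E-box CANNTG. All are on the plus strand of GRCm38.p6 and run 5′ to 3′.
Hoxd8, chr2:74704365-74704614: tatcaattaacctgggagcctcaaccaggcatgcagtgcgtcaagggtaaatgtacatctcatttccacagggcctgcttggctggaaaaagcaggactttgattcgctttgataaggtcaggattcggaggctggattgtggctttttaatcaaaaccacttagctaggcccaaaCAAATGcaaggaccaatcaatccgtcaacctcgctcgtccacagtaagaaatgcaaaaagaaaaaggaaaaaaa
Hoxd9, chr2:74697513-74697762: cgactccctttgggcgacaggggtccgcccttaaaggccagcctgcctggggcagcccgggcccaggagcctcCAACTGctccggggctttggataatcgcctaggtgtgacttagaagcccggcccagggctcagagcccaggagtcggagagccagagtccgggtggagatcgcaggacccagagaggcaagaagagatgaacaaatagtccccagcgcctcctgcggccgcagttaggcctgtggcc
Hoxd10, chr2:74691641-74691890: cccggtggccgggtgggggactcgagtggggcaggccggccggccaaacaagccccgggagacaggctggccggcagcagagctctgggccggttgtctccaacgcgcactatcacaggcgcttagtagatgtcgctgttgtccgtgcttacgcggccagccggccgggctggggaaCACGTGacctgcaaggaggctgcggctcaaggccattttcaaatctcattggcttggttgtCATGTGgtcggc
Hoxd1, chr2:74762730-74762979: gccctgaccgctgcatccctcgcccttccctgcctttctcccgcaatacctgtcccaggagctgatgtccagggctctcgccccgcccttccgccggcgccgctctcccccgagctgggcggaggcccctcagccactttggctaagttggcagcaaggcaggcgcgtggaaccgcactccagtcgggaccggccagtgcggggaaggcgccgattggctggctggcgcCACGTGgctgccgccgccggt

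These windows hold 1 E-box before Hoxd8, 1 before Hoxd9, 2 before Hoxd10 and 1 before Hoxd1, and the motif reads the same on both strands. Windows of this length with at least 1 E-box made up 66.2% of the 32851 in the RefSeq table and 70.8% of the 24 that belong to Hox genes, so an E-box in such a window is common. The 2 windows of Hoxa10 held 0. The table had windows for 22 of the 39 Hox genes, 2 of them with more than 1. The Hox windows were richer in CG dinucleotides, with a median of 12.5 per window against 6.0 over all windows. Windows of Hox genes expressed in every library had a median of 12.0 CG dinucleotides and windows of Hox genes at 0 counts a median of 13.0. TGATNNAT, a shared site of Hox and Pbx proteins searched on both strands, was in 4 of the 24 Hox windows, 16.7%, against 7.68% of all windows. It was in 0 of the 11 windows of genes expressed in every library and in 1 of the 5 windows of genes at 0 counts. None of these letters shows where a factor binds.

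**Figure D3:**
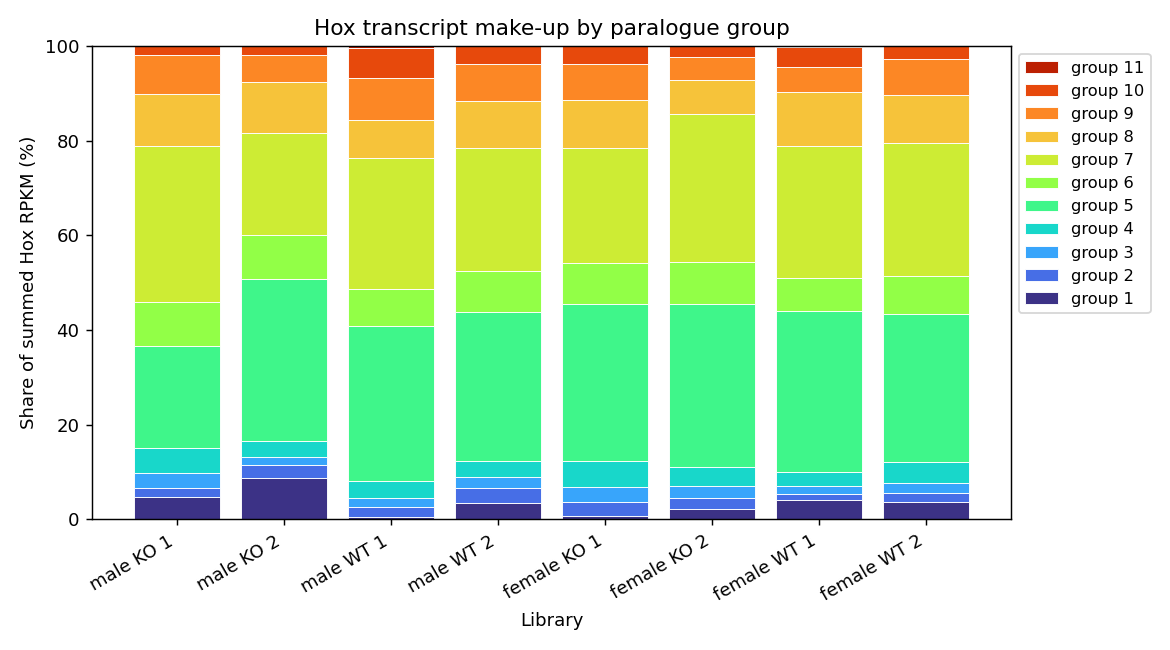
Share of the summed Hox RPKM taken by each paralogue group in each library, stacked from group 1 at the bottom to group 11 at the top, with KO left of WT in each sex. Groups 5 and 7 are the 2 widest bands in all libraries, at 31.9% and 27.5% on average, and group 10 takes 1.89% to 3.88% in KO libraries and 2.78% to 6.22% in WT libraries.

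The spread between libraries was set beside that of genes of like mean level. The 17 members averaging 1 to 10 CPM had a median CV over the 8 libraries of 40.6%, against 52.4% over all 6116 such genes, with Hoxb9 at 170% and Hoxc8 at 128% as the widest. Where at least 1 CPM in every library was also asked for, the 11 members left in this range had a median of 36.4%, against 36.3% over 3006 genes. The 5 members between 10 and 30 CPM had a median of 26.2%, against 29.5%, and the 2 members between 30 and 110 CPM had 21.9%, against 20.8%. Among the 18 members with at least 1 CPM in every library the widest was Hoxd1, with a CV of 76.8%. The RPKM-weighted mean paralogue number was 6.14 and 5.67 in male KO libraries, against 6.41 and 6.09 in male WT libraries, and 6.14 and 5.99 in female KO libraries, against 6.14 and 6.09 in female WT libraries. All 8 values fell within less than 1 paralogue step, and KO and WT overlapped in each sex.

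Against WT, KO libraries showed no Hox gene past the threshold. Of the 39 members, 30 had enough counts to enter the quasi-likelihood test of edgeR, and an adjusted p below 0.05 over all 22013 genes was reached by 0 of 30 in males, 0 of 30 in females and 0 of 30 over both sexes. Each comparison called 0.00454% of all genes, which is Bhlha9 alone. Unadjusted p-values below 0.05 were found for 1 member in males (Hoxa10), 3 in females (Hoxd9, Hoxa9 and Hoxb9) and 3 over both sexes (Hoxd9, Hoxa10 and Hoxd11), chosen here after their values were seen. Over all genes the share at that limit was 3.5% in males, 3.81% in females and 3.56% over both sexes. DESeq2 called 1.05% of the genes to which it gave an adjusted p in males, 1.19% in females and 0.709% over both sexes. Of the members it called 0 of 29 in males, 1 of 29 in females (Hoxb9) and 0 of 30 over both sexes. The authors' deposited tables of genes past 5% list 150 genes in males and 13 in females, and none of them is a Hox gene. The median log2 fold change of the 30 members was -0.21 in males, against 0.02 over all genes tested. In females it was -0.16, against 0.0 over all genes, and over both sexes 0.03, against 0.01. The C-LTMR markers had a median of -0.38 in males, with 0 of 10 above 0, and of 0.21 in females, with 9 of 10 above 0. They summed to 5419 and 7664 CPM in male KO libraries, against 8364 and 8355 CPM in male WT libraries, and to 7347 and 9346 CPM in female KO libraries, against 8309 and 7070 CPM in female WT libraries, and their part in the Hox values was not tested. Summed over all members, Hox CPM was 297 ± 37.6 in KO libraries and 342 ± 43.6 in WT libraries (SD over both sexes, n = 4 each). The ratio was 0.868, with a spread of 0.156 carried over from these SDs of single libraries, which is not an error of the ratio of means. The sums were 254 and 284 CPM in male KO libraries, against 346 and 284 CPM in male WT libraries. In females they were 305 and 343 CPM in KO libraries, against 390 and 347 CPM in WT libraries. The SDs thus include the difference between sexes, and the sums were not tested.

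2 members had all 4 KO libraries below all 4 WT libraries, Hoxa10 and Hoxd9, which is 6.67% of the 30 tested, against 0.895% of all genes tested. No member had all 4 KO libraries above the WT ones, against 0.936% of all genes. With fewer libraries more genes separate. The count below was 4 without male_WT2, when Hoxa5 and Hoxa7 joined, against 2.28% of all genes, and 4 without female_WT2, when Hoxd10 and Hoxd11 joined, against 1.84%. The joining of Hoxd10 and Hoxd11 carries no weight. Hoxd11, at 0 counts in all 4 KO libraries, entered the test through WT libraries only and had 2 counts in male_WT2, under the floor of 3. Hoxd10 separated by 11 counts in male_WT2 against 10 in male_KO2. The count above was 2 without male_KO1 (Hoxb2 and Hoxb6), against 1.83% of all genes, and 1 without female_WT2 (Hoxc5), against 1.67%. Hoxa10, a gene of the lumbar level and the uterus, had 3.27 and 5.49 CPM in male KO libraries, against 17.3 and 9.52 CPM in male WT libraries. In females it had 9.51 and 6.95 CPM in KO libraries, against 11.7 and 10.5 CPM in WT libraries. The 2 groups touched, with the highest KO library at 9.51 CPM and the lowest WT library at 9.52 CPM. The log2 fold change was -1.61 in males (SE 0.47), -0.43 in females (SE 0.46) and -1.02 over both sexes (SE 0.38), with an edgeR adjusted p of 1.0 in each. Hoxd9, which acts in hindlimb innervation, had 3.22 and 3.88 CPM in male KO libraries, against 6.83 and 5.12 CPM in male WT libraries. In females it had 3.15 and 2.2 CPM in KO libraries, against 6.56 and 7.31 CPM in WT libraries. The gap between the groups was wider than for Hoxa10, with the highest KO library at 3.88 CPM and the lowest WT library at 5.12 CPM. The log2 fold change was -0.75 in males (SE 0.47), -1.37 in females (SE 0.48) and -1.06 over both sexes (SE 0.33), again with an edgeR adjusted p of 1.0 in each. DESeq2 gave Hoxd9 an adjusted p of 0.0508 over both sexes and 0.113 in females, and Hoxa10 one of 0.357 over both sexes and 0.073 in males, all above the threshold. Fewer cells that carry a transcript and less transcript per cell cannot be told apart in such bulk samples.

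The neighbours of these 2 genes did not separate over both sexes. Hoxa9, next to Hoxa10, and Hoxd8, next to Hoxd9, had overlapping KO and WT libraries over both sexes. Within a sex, Hoxa9 was below WT in males and above it in females, and Hoxd8 was below WT in females. Hoxd10, the other neighbour of Hoxd9, also overlapped, with means of 0.0385 CPM in KO and 0.946 CPM in WT libraries. It separated only without female_WT2. All members of group 10 together had 4.9 and 6.3 CPM in male KO libraries, against 22.5 and 11.8 CPM in male WT libraries, and 12.2 and 8.71 CPM in female KO libraries, against 17 and 11.6 CPM in female WT libraries. Groups 9 to 13 together averaged 37.6 ± 6.85 CPM in KO libraries and 50.1 ± 11.8 CPM in WT libraries (SD, n = 4 each), with overlap over both sexes. In males they had 35.5 and 30.5 CPM in KO libraries, against 67.7 and 44.1 CPM in WT libraries, without overlap. In females they overlapped, at 46.9 and 37.4 CPM in KO libraries, against 43.5 and 45.2 CPM in WT libraries. These sums were not tested.

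**Figure D4:**
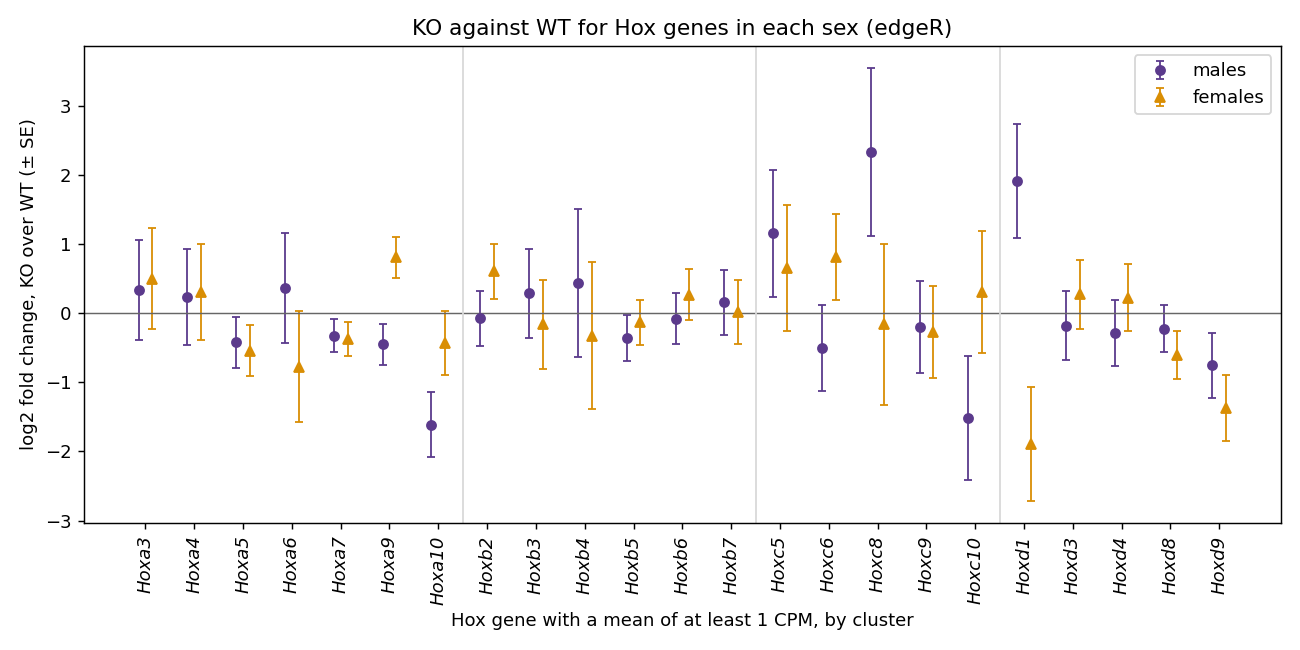
Log2 fold change of KO over WT with its SE from the edgeR fit, in males (circles) and in females (triangles), for Hox genes with a mean of at least 1 CPM other than Hoxb9, whose female KO libraries were at 0. Hoxa10 and Hoxd9 are below 0 in both sexes, and Hoxd1 is at 1.92 in males and -1.89 in females. None of the values passed the threshold.

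In males alone, KO libraries lay below both WT libraries for 8 of 30 members (26.7%, against 14.5% of all genes) and above them for 6 (20%, against 14.5%). The 8 include Hoxd11, whose lower male WT library had 2 counts, under the floor of 3. In females, they lay below for 8 (26.7%, against 15.1%) and above for 5 (16.7%, against 14.2%). Hoxa7, Hoxa10 and Hoxd9 were the 3 members below in both sexes, against 2.0% of all genes, and were chosen here after their values were seen. Hoxc6 was among the 5 members above in females, at 5.07 and 5.11 CPM in KO libraries, against 3.69 and 2.09 CPM in WT libraries (log2 fold change 0.82, SE 0.62, edgeR adjusted p = 1.0). Hoxc10 was among the 8 members below in males, with a log2 fold change of -1.51 (SE 0.90, edgeR adjusted p = 1.0). Hoxb9, a gene of the trunk, had 0 and 97 counts in male KO libraries, against 96 and 40 in male WT libraries, and 0 in both female KO libraries, against 6 and 395 in female WT libraries. Against the floor of 3 counts per library, the female KO mean was at least 63.1-fold lower than the female WT mean of 3.18 CPM. That WT mean rests on 1 library, female_WT2 at 6.25 CPM, since female_WT1 stood at 0.106 CPM.

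For 3 members the libraries of the 2 sexes separated in opposite directions. Hoxd1, which in mouse is known from the nociceptors that depend on nerve growth factor, had 7.26 and 18.2 CPM in male KO libraries, against 1.43 and 5.28 CPM in male WT libraries. In females it had 1.55 and 4.16 CPM in KO libraries, against 11.9 and 9.29 CPM in WT libraries. The male fold change exceeded the female one by 3.81 on the log2 scale (SE 1.17, edgeR adjusted p = 0.98). Hoxa9 moved the other way round, with 20.6 and 16 CPM in male KO libraries, against 27.2 and 22.6 CPM in male WT libraries, and 26.1 and 23.4 CPM in female KO libraries, against 11.7 and 16.5 CPM in female WT libraries. Its difference between the sexes was -1.25 (SE 0.42, edgeR adjusted p = 0.98). Hoxb3, a gene of the hindbrain and neck, had 2.72 and 2.71 CPM in male KO libraries, against 2.11 and 2.34 CPM in male WT libraries, and 1.66 and 1.83 CPM in female KO libraries, against 1.99 and 1.9 CPM in female WT libraries, with a difference of 0.45 (SE 0.92, edgeR adjusted p = 1.0). Over all genes tested, 2.63% separated in the direction of Hoxd1 and Hoxb3 and 2.14% in that of Hoxa9. The test of the difference between sexes called 0 of 30 members and 0.0% of all genes in edgeR, and 0 of 28 members in DESeq2, which called 1.46% of the genes to which it gave an adjusted p, with 2 members, Hoxd1 and Hoxa9, at an unadjusted edgeR p below 0.05, a limit passed by 4.73% of all genes. Markers of peptidergic nociceptors summed to 1184 and 1666 CPM in male KO libraries, against 327 and 352 CPM in male WT libraries, and to 1149 and 236 CPM in female KO libraries, against 768 and 1428 CPM in female WT libraries. In female_KO1 the sum rests mostly on Calca, a neuropeptide gene, at 712 CPM, and the 6 markers did not all move together. Kit, a receptor gene, and the neuropeptide genes Adcyap1 and Gal were low in female_KO1, as Hoxd1 was: Kit had 0.939 and 0.337 CPM in female KO libraries, against 7.83 and 12.8 CPM in female WT libraries. Adcyap1 had 4.58 and 2.89 CPM in female KO libraries, against 15.8 and 22.8 CPM in female WT libraries, and Gal had 0.685 and 1.33 CPM in female KO libraries, against 20.1 and 68.6 CPM in female WT libraries. In males the KO and WT libraries of Kit, Adcyap1 and Gal overlapped, those of Hoxd1 did not. None of the 6 was at 0 counts in any library, and their part in the Hoxd1 values was not tested.

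**Figure D5:**
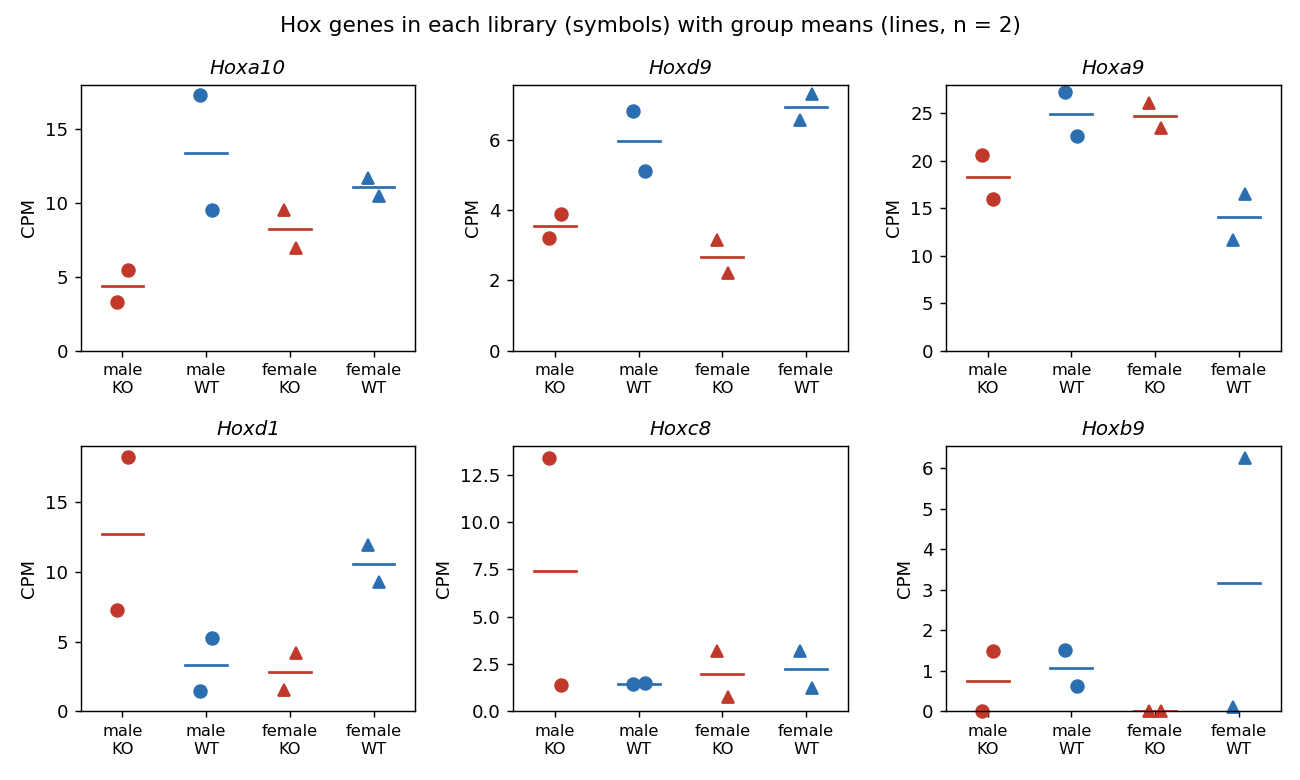
CPM of 6 Hox genes in each library (symbols) with the mean of each group of 2 libraries (lines), with KO left of WT in males and then in females. KO libraries of Hoxa10 and Hoxd9 are below WT libraries in both sexes, Hoxd1 and Hoxa9 separate in opposite directions in the sexes, and Hoxc8 and Hoxb9 each rest on 1 high library, at 13.4 CPM in male_KO1 and 6.25 CPM in female_WT2.

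Genes that read or hold the Hox code differed widely in level, and edgeR called none of them. All 9 Hox cofactors of the Pbx, Meis and Pknox families were tested, with 0 called in either direction in each comparison. Meis3 ranged from 94.2 to 145 CPM and Pknox2 from 33.0 to 70.0 CPM. Pbx3 ranged from 11.4 to 22.5 CPM and Pbx2 from 12.5 to 21.2 CPM. Other cofactors were low in some libraries, with Meis1 at 0.317 to 2.5 CPM and Meis2 at 0 to 9.46 CPM. All 22 genes of the trithorax and Polycomb list were tested, also with 0 called. Trithorax and Polycomb proteins keep Hox genes on or off, and the list also holds Ctcf, which belongs to neither class. Phc2, a Polycomb subunit, ranged from 93.8 to 170 CPM, and the histone methyltransferase Ezh1 from 69.3 to 113 CPM, while its relative Ezh2, typical of dividing cells, ranged from 0.277 to 3.44 CPM. Kdm6a, an X-linked eraser of the Polycomb mark, had 16.5 and 15.7 CPM in female KO libraries, against 3.85 and 3.36 CPM in female WT libraries (log2 fold change 2.16, SE 0.48, edgeR adjusted p = 1.0), and the authors' deposited table for females lists it with a log2 fold change of 1.27, on a scale where Bhlha9 is negative. In males it had 9.18 and 17.4 CPM in KO libraries, against 10.7 and 5.7 CPM in WT libraries. Of 14 upstream patterning genes, 6 had 0 counts in all libraries, among them Cdx1, Cdx2 and Cdx4, which start posterior Hox genes in the embryo, and Aldh1a2, which makes retinoic acid. Rarg, a retinoic acid receptor, ranged from 16.6 to 29.7 CPM. Of these 14, 6 had enough counts to be tested and edgeR called 0. The authors' deposited table for males lists 1 of them, Egr2, a hindbrain regulator of Hox genes that Schwann cells also use, with a log2 fold change of 1.41. Egr2 had 26.7 and 10.6 CPM in male KO libraries, against 4.06 and 3.22 CPM in male WT libraries (log2 fold change 2.36, SE 1.05, edgeR adjusted p = 1.0), and 8.55 and 2.82 CPM in female KO libraries, against 0.723 and 5.91 CPM in female WT libraries.

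Inside the clusters lie 46 other annotated genes, of which 21 were tested and 20 had 0 counts in all libraries. None of the 21 was called in any comparison. Those with the highest CPM, not scaled by length, were antisense or opposite-strand RNAs beside expressed Hox genes. Hoxb5os, which runs against Hoxb5, had 8.5 and 17.4 CPM in male KO libraries, against 18.8 and 14.6 CPM in male WT libraries, and 16.1 and 19.9 CPM in female KO libraries, against 21.1 and 17.4 CPM in female WT libraries. Its lowest and highest libraries, male_KO1 and female_WT1, were also the lowest and highest for Hoxb5, with which it shares 100 bases, 3.6% of the Hoxb5 exon length. Hoxd3os1 ranged from 7.88 to 20.4 CPM, Hoxaas2 from 6.28 to 15.9 CPM, Hoxaas3 from 7.24 to 14.5 CPM and Hoxb3os from 6.51 to 11.8 CPM. Of the Hox genes themselves, 23 share no exon base with another gene and 10 share over 10% of their exon length, so the levels of Hoxb5, Hoxd8, Hoxa5, Hoxb7, Hoxa10, Hoxd9 and Hoxd1 rest on exons of their own or nearly so.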

How the data were processed

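The deposited count table holds whole-number counts of reads per gene for 8 libraries, per the file headers. The authors' deposited tables, 1 per sex, hold log2 fold changes and their errors, and a p-value with its adjusted p-value, for genes past 5%, per the file headers; they were used to see which genes they list, with the log2 fold change of a few. Per the labels' protocols, polyadenylated RNA was made into full-length cDNA with SMART-Seq v4 and libraries with Nextera XT, without molecular identifiers. Per the file headers, featureCounts 1.6.1 counted reads over exons of Ensembl GRCm38 release 97 with no regard to strand, and gave a read that overlaps several genes to each. The submitters' processing notes name Subread 1.6.4, DESeq2 1.14.1 and bcl2fastq 2.17.1.14. No source used here gives the aligner.

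Symbols came from GENCODE M21 for GRCm38, and all 39 members had the same start and end there. Library sizes were scaled with TMM factors between 0.9793 and 1.022. Genes kept by filterByExpr (22013) were tested with the two-sided quasi-likelihood test of edgeR 4.0.16 in R 4.3.3, over all 8 libraries. A fit of 4 groups gave each sex and the difference between sexes, with 4 residual degrees of freedom, and an additive fit of sex and genotype gave both sexes together, with 5. A gene was called where its p, adjusted by the Benjamini-Hochberg method across the 22013 genes, was under 0.05. Both fits were tested on simulated data. The changed genes were drawn from those above 5 CPM, with the spread usual at their level. Of 50 changed 2-fold, 4 were recovered in males, 4 in females and 18 over both sexes. Of 50 changed 4-fold, 33 were recovered in males, 33 in females and 39 over both sexes. A count of 0 called therefore does not exclude changes of these sizes. Many Hox members lie at lower levels, to which these shares do not apply. DESeq2 1.42.0, another scaling, no filter, a replicate block, leaving out each library, and other limits on level were tried as alternatives. SD measures the spread between libraries. SE is the error of a log2 fold change, worked out from the edgeR test, whose estimate of spread is shared in part between genes.

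The members and lists (cofactors, trithorax and Polycomb, upstream patterning, markers of C-LTMRs and other cells) were chosen with earlier results of these data known. Named in every library were members with at least 1 CPM in all 8 libraries, up to the 20 with the highest mean, the 4 with the largest change per sex, members whose groups separated, and up to 4 genes per list. Some of the members at stable levels are given by their range. Promoters are from a RefSeq table for GRCm38.p6. The level of 1 member is not reported here; it stays in the counts and sums.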

Additional observations from a re-analysis of the deposited data

Results flagged for a closer look

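In 48 groups of 4 libraries of 1 genotype, both sexes together, 24 members were looked at for a library far from the other 3, where chance alone gives about 1 in 20. That rate assumes normally distributed values, which low counts and groups with zeros need not be. No share over all genes is given here, so the 4 values that passed the limit are not read as an excess. Hoxb9 was at 1.49 CPM in male_KO2 and at 0 counts in the other 3 KO libraries. Hoxc5 was at 3.27 CPM in female_KO1, against at most 1.74 CPM in the other KO libraries, and at 2.39 CPM in female_WT2, against at most 0.776 CPM in the other WT libraries. Hoxc8 was at 3.21 CPM in female_WT1, against at most 1.49 CPM in the other WT libraries. The library with 13.4 CPM of Hoxc8, male_KO1, was just inside the limit for 4 values.

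For 3 members KO and WT libraries separated in opposite directions in the 2 sexes. The male log2 fold change minus the female one was 3.81 for Hoxd1 and -1.25 for Hoxa9 (edgeR adjusted p = 0.98 for each), and 0.45 for Hoxb3 (edgeR adjusted p = 1.0). None of these differences passed the test of the difference itself.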

How the results depend on the processing

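The count of 0 Hox genes called held in males, over both sexes and for the difference between sexes under each alternative run, and in females under each except DESeq2. DESeq2 called 1 member in females, Hoxb9 (adjusted p = 0.0416, against 0.88 to 1.0 under the edgeR alternatives), and over all genes 161 over both sexes, 213 in males, 241 in females and 288 for the difference, after giving an adjusted p to 22717, 20299, 20299 and 19695 genes; the cause was not tested. With a replicate block, 0 genes were called in males and 0 in females, and with the libraries of 1 sex only also 0 and 0, so that Bhlha9 itself was lost, in fits with fewer residual degrees of freedom; the block left 1 over both sexes. Same-numbered KO and WT libraries did not deviate together, with a correlation of -0.014 in males and 0.001 in females, so the numbers were not taken as pairs. Of the 18 genes with at least 1 CPM in every library, 8 had at least 5 CPM, and 11 shared at most 10% of their exon length with another gene, which are stricter limits by construction. Leaving out 1 library moved the count of members below WT between 2 and 4 (1.82% to 2.28% of all genes), the count above WT between 0 and 2 (1.61% to 2.59% of all genes), and the male log2 fold change of Hoxc8 between -0.06 (without male_KO1) and 3.18. These separations were looked at under other settings after seeing the data, and Hoxa10 and Hoxd9 stayed separate with raw totals and with DESeq2 size factors. The ratio of summed Hox CPM, KO over WT, lay between 0.822 and 0.911. At these depths no statement can be made on levels under 3 counts per library.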

Other observations

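Meis2, a cofactor of Hox proteins, was highest in the same library as Hoxc8, with 9.46 CPM in male_KO1 and at most 0.646 CPM in the other 7 libraries. Gm11539, a processed pseudogene between Hoxb13 and Hoxb9, lay between 4.95 and 7.33 CPM in all 8 libraries, in a stretch of HoxB whose Hox neighbours were at 0 or patchy. Cbx2, a Polycomb subunit, had 0.121 and 0.0154 CPM in male KO libraries, against 3.85 and 2.03 CPM in male WT libraries, and 2.8 and 0.618 CPM in female KO libraries, against 0 counts in both female WT libraries. These values were picked after they were seen and no test was added for them.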
